A study of Rattus norvegicus with 9 samples.

Results

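The transcript of insulin-like growth factor 2 (Igf2), the long noncoding RNA H19 and 8 further genes of the insulin-like growth factor (IGF) axis were followed across 9 fetal rat lungs. These 10 genes were named by symbol: the ligands Igf2 and Igf1, the RNA H19, the receptors Igf1r and Igf2r, and the binding proteins Igfbp2, Igfbp3, Igfbp4, Igfbp5 and Igfbp6. All 10 were found among the 17465 genes of the deposited table, and all 10 passed the filter on low counts that left 12966 genes. They were selected on their levels in the control, hypoplastic and treated libraries, which were already known when the genes were proposed, so their differences between groups are given as a description and not as a test.

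The lungs came from Sprague-Dawley rat fetuses and fell into 3 groups of 3 libraries. Control lungs received no treatment. Hypoplastic lungs, which are too small for their age, had developed under oligohydramnios, a shortage of amniotic fluid, and also received no treatment. Treated lungs were hypoplastic lungs given AFSC-EVs, the extracellular vesicles released by amniotic fluid stem cells. The treated group therefore shares the hypoplasia of the second group, and no vesicle-treated control lungs were analysed here. The labels do not state fetal age, litter, vesicle dose or how the lack of fluid was brought about. Whole lungs were ground to powder, so each library mixes all cell types of the organ, and a lower level of a transcript from fewer cells of 1 type cannot be told apart from less of that transcript per cell.

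IGF1 and IGF2 are secreted growth factors that signal through the receptor tyrosine kinase IGF1R and drive growth of the fetus and of its organs, with IGF2 the main ligand before birth. IGF2R has no kinase of this kind and carries IGF2 into the cell for degradation. The IGF-binding proteins hold the ligands outside the cell, where they can extend their life or keep them from the receptor. Igf2 and H19 are neighbouring imprinted genes: Igf2 is read from the paternal and H19 from the maternal copy, under a control region between them that binds the insulator protein CTCF, and they share enhancers. In the fetal lung, IGF ligands are made largely in the mesenchyme.

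Both genes of the imprinted pair hold a microRNA, and the mature forms are shown because they are the sequences these host transcripts carry. Mir675 lies in H19 and Mir483 in Igf2. The sequences are from RefSeq (GRCr8, chromosome 1, minus strand), written 5′ to 3′ with the seed, bases 2 to 8, in capitals.
rno-miR-675-5p: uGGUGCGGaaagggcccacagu
rno-miR-675-3p: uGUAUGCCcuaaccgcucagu
rno-miR-483-5p: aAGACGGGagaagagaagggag
rno-miR-483-3p: cACUCCUCcccucccgucuugu
No seed was shared among these 4 sequences. The rows of Mir675 and Mir483 are listed at 0 in all 9 libraries, so the values of the host genes below say nothing of the mature microRNAs.

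RefSeq gave a promoter sequence for 9 of the 10 genes, and for Igf2 it gave 2 start sites. The 250 bases before each Igf2 start are shown because the comparison turns on Igf2 and rat Igf2 is known to use several promoters, which a count per gene adds together. They were searched on both strands for the AT-rich core promoter motif ATAAAA and for the GC box GGGCGG, and matches are in capitals. The 2 motifs do not overlap in these windows.
Igf2 upstream start (GRCr8 chr1:207253981-207254230, minus strand): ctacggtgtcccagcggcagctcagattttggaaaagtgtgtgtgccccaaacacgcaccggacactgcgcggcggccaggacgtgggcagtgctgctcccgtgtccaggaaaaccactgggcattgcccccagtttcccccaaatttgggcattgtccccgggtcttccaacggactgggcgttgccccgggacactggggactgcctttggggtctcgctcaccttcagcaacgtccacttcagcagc
Igf2 downstream start (GRCr8 chr1:207250476-207250725, minus strand): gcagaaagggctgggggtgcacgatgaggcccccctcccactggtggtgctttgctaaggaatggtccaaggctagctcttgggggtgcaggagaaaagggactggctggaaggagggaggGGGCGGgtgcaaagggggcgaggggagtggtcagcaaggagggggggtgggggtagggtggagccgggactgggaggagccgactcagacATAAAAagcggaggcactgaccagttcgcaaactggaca
The downstream window held 1 ATAAAA, beginning 39 bases before the start, and 1 GGGCGG, and the upstream window held neither. Among all 33469 promoter windows of the RefSeq table, 18.6% held ATAAAA and 30.5% held GGGCGG within the same 250 bases. None of the other 8 genes with a promoter held ATAAAA, while Igf1r, Igf2r and Igfbp2 held GGGCGG. Only exact matches were counted, so a window without ATAAAA may still hold a variant of this AT-rich motif. The counts do not tell which Igf2 start was used.

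The libraries held 56922779 to 88243188 estimated counts. Levels are given as CPM, the counts of a gene scaled to a common library size, adjusted between libraries by the TMM method. The lung epithelial genes Epcam, Nkx2-1 and Sftpc were well above the filter in every library, the lowest value being 264.5 CPM of Nkx2-1 in hypoplastic library 1. Control library 2 and hypoplastic library 2 stood at opposite ends for the summed level of 8 mesenchyme markers. It was 1936 CPM in control library 2 and 14980 CPM in hypoplastic library 2, against 3229 to 6406 CPM in the other 7. Most of the sum was collagen: in hypoplastic library 2 Col1a1, Col3a1 and Col1a2 were at 5816, 5268 and 3230 CPM. The markers Tcf21 and Tbx4, at 21.75 and 91.26 CPM there, lay within the range of the other libraries. Control library 2 also had the highest summed level of 6 red cell genes, 12210 CPM against 3674 to 7337 CPM elsewhere, and 12.54 CPM of liver genes, nearly all Apoa1 and Apob, against 0.316 CPM or less elsewhere. The summed level of 6 heart muscle genes was 144.9 CPM in hypoplastic library 1 and 75 CPM in hypoplastic library 2, against 10.88 CPM or less in the other 7. By Xist and the Y-linked gene Ddx3y, 2 of 3 control lungs and 1 of 3 in each other group were male.

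Igf2 and H19 were higher in all 3 hypoplastic lungs than in any control or treated lung. Igf2 stood at 3427, 2260 and 2809 CPM in the control libraries, at 5203, 4670 and 4760 CPM in the hypoplastic libraries, and at 2516, 3400 and 2567 CPM in the treated libraries. The hypoplastic libraries lay close together and apart from the rest, while the control and treated libraries overlapped almost fully. The group means were 2832 CPM ± 583.6 (SD, n = 3) in control, 4878 CPM ± 285.5 (SD, n = 3) in hypoplastic and 2828 CPM ± 495.9 (SD, n = 3) in treated lungs. The fitted log2 difference of Igf2 was 0.78 (SE 0.21) between hypoplastic and control lungs, which is 1.72-fold. Between treated and hypoplastic lungs it was -0.79 (SE 0.21), and between treated and control lungs 0.00 (SE 0.20).

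H19 stood at 4527, 2712 and 3844 CPM in control, at 6891, 6579 and 6420 CPM in hypoplastic, and at 4122, 5523 and 4114 CPM in treated lungs. The order of the groups was that of Igf2 for the hypoplastic lungs, but the treated lungs of H19 reached higher than the controls: library 2 of the treated group was above every control. The means were 3694 CPM ± 916.8 (SD, n = 3), 6630 CPM ± 239.4 (SD, n = 3) and 4586 CPM ± 811.3 (SD, n = 3). The fitted log2 difference of H19 was 0.84 (SE 0.23) between hypoplastic and control, -0.53 (SE 0.23) between treated and hypoplastic, and 0.31 (SE 0.23) between treated and control lungs. The last of these was 0.13 without control library 2 and 0.50 without control library 1. Treated and control lungs overlapped for both genes.

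Together these transcripts made up a sizeable share of each library. H19 held 0.267 to 0.459% of all estimated counts in control, 0.614 to 0.679% in hypoplastic and 0.428 to 0.523% in treated lungs. Igf2 held 0.223 to 0.348%, 0.455 to 0.513% and 0.264 to 0.322%. These shares divide by the library total without the TMM adjustment, and the hypoplastic lungs were again apart from both other groups. The TMM factors were only 0.9478 to 1.049, so the shares are no separate check on the CPM values.

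**Figure D1:**
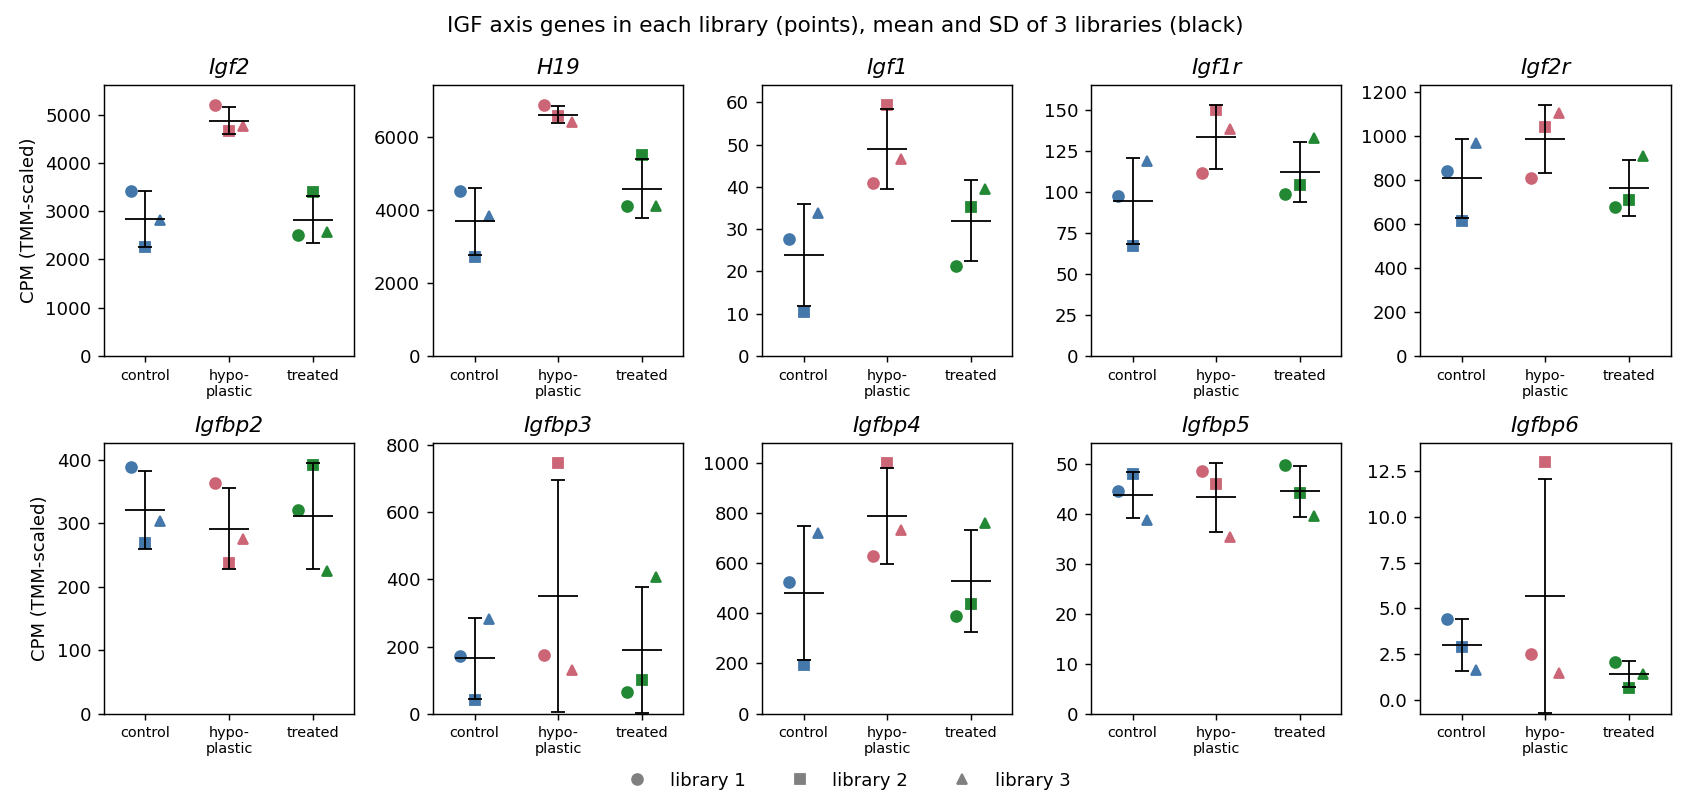
Level of each of the 10 genes (vertical axis, TMM-scaled CPM, a separate scale per gene) in the control, hypoplastic and treated groups. Points are libraries, with a symbol per library number, and black bars are the mean and SD of 3 libraries; the hypoplastic points of Igf2, H19 and Igf1 all lie above the control and treated points, those of Igfbp2 and Igfbp5 lie among them, and Igfbp3 and Igfbp6 have a single high hypoplastic library.

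The number of H19 counts per Igf2 count gave a different picture of the treated lungs. It was 1.321, 1.2 and 1.369 in the control libraries, 1.324, 1.409 and 1.349 in the hypoplastic libraries and 1.638, 1.625 and 1.603 in the treated libraries. Control and hypoplastic lungs overlapped, although the levels of both genes differed between them, and all 3 treated lungs lay above the other 6. The mean ratio was 1.297 ± 0.0871 (SD, n = 3) in control, 1.361 ± 0.0435 (SD, n = 3) in hypoplastic and 1.622 ± 0.0178 (SD, n = 3) in treated lungs. The ratio is taken within a library, so it does not depend on scaling between libraries. It is a ratio of counts and not of molecules, because transcript lengths were not taken into account. It was looked at after the levels were known and is a description, as are the levels it is made of. The hypoplastic level of Igf2 was 1.73 times the treated level, and that of H19 was 1.45 times it. Against the hypoplastic lungs the treated ratio thus restates that Igf2 was lower by more than H19. Against the control lungs it restates fitted treated levels of 0.9986 times control for Igf2 and 1.241 times control for H19.

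**Figure D2:**
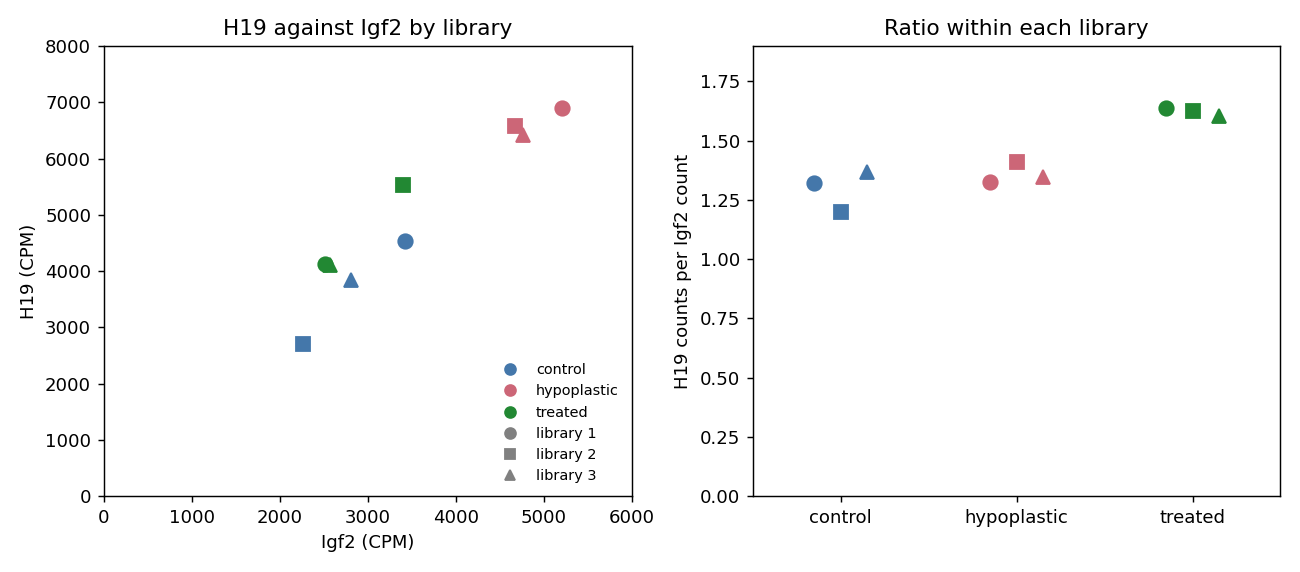
Left: H19 level against Igf2 level (both in TMM-scaled CPM) with 1 point per library, coloured by group. Right: H19 counts per Igf2 count in each library, where the treated libraries sit at 1.603 to 1.638 and the other 6 at 1.2 to 1.409.

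Igf1, the second ligand, was also highest in the hypoplastic lungs, with a wider spread, and its treated mean lay above its control mean. It stood at 27.59, 10.45 and 33.74 CPM in control, at 40.9, 59.4 and 46.68 CPM in hypoplastic, and at 21.32, 35.19 and 39.62 CPM in treated lungs. The hypoplastic lungs again did not overlap the other groups, but hypoplastic library 1 lay only just above treated library 3. Control library 2 was the lowest of all and hypoplastic library 2 the highest, as for the mesenchyme markers. The fitted log2 difference of Igf1 was 1.03 (SE 0.38) for hypoplastic against control and -0.61 (SE 0.38) for treated against hypoplastic lungs, and 0.42 (SE 0.38) for treated against control lungs. Without control library 2 and hypoplastic library 2 the first of these was 0.513. The second was -0.39 without treated library 1. The third was 0.06 without control library 2 and 0.75 without control library 3.

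The receptors differed less than the ligands. Igf1r, the signalling receptor, stood at 97.94, 67.01 and 118.9 CPM in control, 112, 150.3 and 138.7 CPM in hypoplastic and 99.14, 104.7 and 133.4 CPM in treated lungs. Its hypoplastic mean was the highest, but the libraries of every pair of groups overlapped. The log2 difference of Igf1r was 0.50 (SE 0.21) for hypoplastic against control lungs and 0.209 without control library 2 and hypoplastic library 2.

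Igf2r, which clears IGF2, stood at 841.9, 612 and 967 CPM in control, 809.3, 1042 and 1105 CPM in hypoplastic and 675.7, 706.8 and 908.8 CPM in treated lungs. All groups overlapped. Its log2 differences were 0.29 (SE 0.20) for hypoplastic against control and -0.37 (SE 0.20) for treated against hypoplastic lungs, both smaller than those of its ligand Igf2. The first was 0.081 without control library 2 and hypoplastic library 2.

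Among the binding proteins, Igfbp4 and Igfbp3 had higher means in hypoplastic lungs, with overlapping libraries. Igfbp4, which the protease PAPP-A cleaves to release IGF, stood at 524.6, 192.9 and 722.9 CPM in control, 630.6, 1002 and 734.5 CPM in hypoplastic and 389.3, 437.8 and 760.7 CPM in treated lungs. Library 2 was the lowest control and the highest hypoplastic lung. The log2 difference of Igfbp4 for hypoplastic against control lungs was 0.72 (SE 0.43), and 0.13 without those libraries.

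Igfbp3, the main carrier of IGFs in blood after birth, varied most among the abundant binding proteins. It stood at 172, 40.81 and 280.7 CPM in control, 175.6, 748.6 and 128.9 CPM in hypoplastic and 64.97, 101 and 406.9 CPM in treated lungs. A single library, hypoplastic library 2, set the high hypoplastic mean. The log2 difference of Igfbp3 for hypoplastic against control lungs was 1.09 (SE 0.90), turned to -0.11 without hypoplastic library 2, and was -0.573 without control library 2 as well.

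Igfbp6, which prefers IGF2 over IGF1, was the least counted of the 10 genes. It stood at 4.443, 2.907 and 1.614 CPM in control, 2.531, 13.01 and 1.466 CPM in hypoplastic and 2.08, 0.6696 and 1.439 CPM in treated lungs. Again hypoplastic library 2 alone was high. The log2 difference of Igfbp6 was 0.93 (SE 0.74) for hypoplastic against control and -2.03 (SE 0.78) for treated against hypoplastic lungs, the largest in size of all 10 genes in the second comparison. Without hypoplastic library 2 these were -0.56 and -0.54.

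The group means of Igfbp2 and of Igfbp5 differed by less than the SD within any group. Igfbp2, a binding protein abundant in fetal tissues, was at 320.5 CPM ± 61.3 (SD, n = 3) in control, 291.7 CPM ± 64.57 (SD, n = 3) in hypoplastic and 312.1 CPM ± 83.5 (SD, n = 3) in treated lungs. Igfbp5, which also binds extracellular matrix, was at 43.89 CPM ± 4.651 (SD, n = 3), 43.35 CPM ± 6.982 (SD, n = 3) and 44.57 CPM ± 5.168 (SD, n = 3). Igfbp5 had the narrowest range of the 10 genes relative to its level, from 35.42 to 49.94 CPM over all libraries. The fitted log2 differences of these 2 genes lay between -0.14 and 0.10 in the 3 comparisons.

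**Figure D3:**
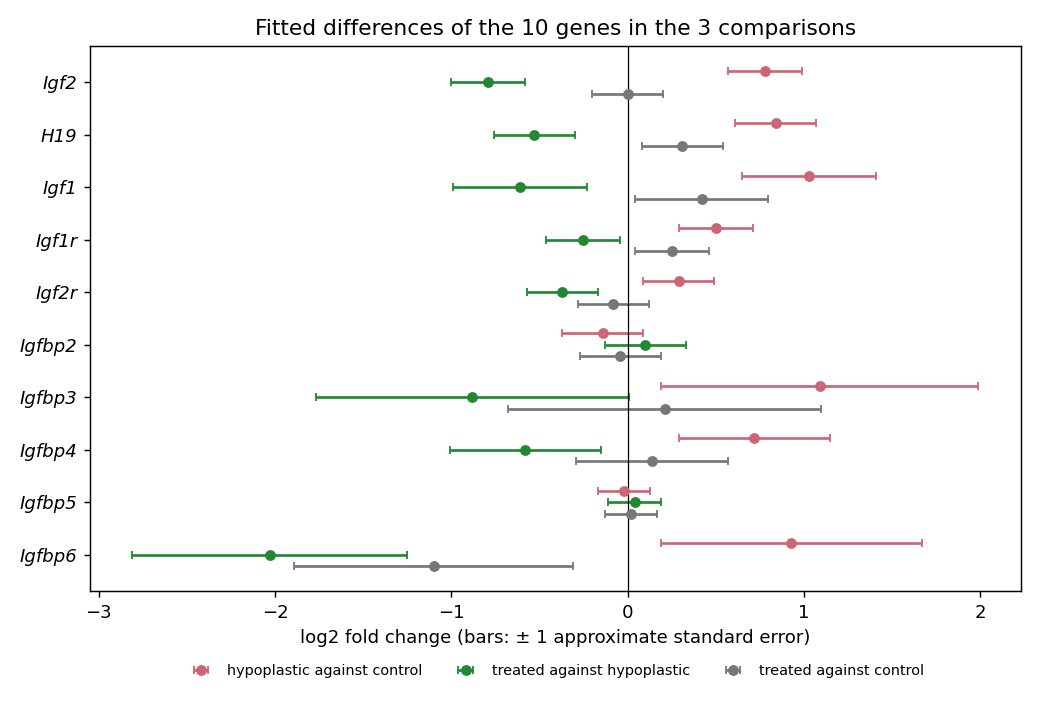
Fitted log2 fold change (horizontal axis) of each of the 10 genes in the 3 comparisons (red, hypoplastic minus control; green, treated minus hypoplastic; grey, treated minus control), with bars of 1 approximate standard error. Igf2 and H19 have short bars far from 0 in the first comparison (0.78 and 0.84), while the bars of Igfbp3 and Igfbp6 are the longest; the comparisons share libraries, so the first 2 are not independent.

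Read against all genes tested, the counts were as follows. In hypoplastic against control lungs 8 of the 10 genes were higher and 2 lower, with a median log2 difference of 0.75 against 0.01 over all genes. Of the 10 genes 3, Igf2, H19 and Igf1, had hypoplastic libraries that all lay above the controls, as did 7.68% of all genes tested. At an unadjusted p under 0.05 edgeR had 4 of the 10, all higher (Igf2, H19, Igf1 and Igf1r), against 6.67% of all genes higher at that level. At an adjusted p under 0.05 edgeR called 0 of the 10 and 0.00771% of all genes, and the smallest adjusted p among the 10 was 0.3165. DESeq2 called 2 of the 10, Igf2 and H19, and 1.56% of all genes. Nothing is read from these counts, since the 10 genes were chosen with the same comparison in view.

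In treated against hypoplastic lungs 8 of the 10 genes were lower and 2 higher, with a median log2 difference of -0.55 against -0.01 over all genes. Igf2, H19 and Igf1 again did not overlap, now lower, as did 4.74% of all genes. At an unadjusted p under 0.05 edgeR had 3 of the 10, all lower (Igf2, H19 and Igfbp6), against 3.56% of all genes lower. At an adjusted p under 0.05 edgeR called 0 of the 10 and 0% of all genes, and DESeq2 called 1 of the 10, Igf2, and 0.132% of all genes. This comparison and the one before it use the same hypoplastic libraries, so opposite signs in them are partly built in. In treated against control lungs 0 of the 10 genes had an unadjusted p under 0.05 by edgeR, against 1.67% of all genes higher and 2.50% lower. In none of the 10 were these 2 groups apart, as they were for 4.37% of all genes with treated lungs higher and 5.02% with treated lungs lower, and edgeR called 0% of all genes at an adjusted p under 0.05. DESeq2 called 0 of the 10 there and 0.108% of all genes.

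Across the 9 libraries 7 of the 10 genes varied together in an imprinted pair and a set of 5, which were not sharply apart. Pearson's r of log2 CPM between Igf2 and H19 was 0.937 over the 9 libraries (Spearman's rho 0.9), and 0.976 for the deviations from the group means, so the pair also moved together among lungs of 1 group. The second set was Igf1, Igf1r, Igf2r, Igfbp3 and Igfbp4. The r between Igf1r and Igfbp4 was 0.966 (rho 0.933), that between Igf1 and Igf1r 0.954 (rho 0.9), and that between Igf1 and Igfbp4 0.949 (rho 0.85). Within groups these 3 values were 0.975, 0.921 and 0.951. Without the 2 libraries farthest from the median of the first gene named they were 0.859, 0.803 and 0.767. Other pairs of the set were looser, such as Igf1 with Igfbp3 at 0.806, or 0.486 without those farthest for Igf1. Among 9571 genes ranked by r, Igfbp4 came 21st for Igf1r and Igfbp3 came 637th for Igf1, so many genes outside the set were closer. Between the pair and the set, H19 with Igf1 was at 0.852, Igf1 with Igf2 at 0.741, H19 with Igf1r at 0.713 and Igf2 with Igf1r at 0.584. Within groups these were 0.696, 0.572, 0.407 and 0.243. The value of H19 with Igf1 was above that of Igf1 with Igf2r (0.823), so Igf1 lay close to both. Igfbp5 went the other way, with r of -0.717 to Igf2r. These values describe 9 libraries that share their group and their scaling, and they carry no test.

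Igf2, H19 and the second set varied with the marker genes of several cell types at once. The r with the summed level of the 8 mesenchyme markers (Col1a1, Col1a2, Col3a1, Pdgfra, Tcf21, Tbx4, Dcn and Lum, all above 0 in the table) was 0.889 for Igfbp4, 0.888 for Igfbp3, 0.869 for Igf1r, 0.809 for Igf1 and 0.794 for Igf2r, against 0.496 for Igf2 and 0.567 for H19. Without control library 2 and hypoplastic library 2, the 2 libraries farthest from the median of these markers, it was 0.798, 0.647, 0.667, 0.288 and 0.748 for the 5 genes in that order, -0.146 for Igf2 and -0.335 for H19. The value of Igf1 thus rests on those libraries. Since Col1a1, Col1a2 and Col3a1 made up most of the sum, these values mainly describe collagen transcripts. The summed mesenchyme level was 1936 to 6406 CPM in control, 4553 to 14980 CPM in hypoplastic and 3229 to 5568 CPM in treated lungs, so the groups overlapped.

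The second set had similar or higher r with the 5 macrophage markers. It was 0.948 for Igf1r, 0.934 for Igfbp4, 0.873 for Igfbp3, 0.871 for Igf1 and 0.809 for Igf2r, against 0.419 for Igf2 and 0.576 for H19. Without the 2 libraries farthest from the median it was 0.784, 0.712, 0.674, 0.405 and 0.619 for the 5 genes, and -0.259 and -0.28 for Igf2 and H19. The summed macrophage level was 15.3 to 70.03 CPM in control, 54.96 to 170.5 CPM in hypoplastic and 46.79 to 144.3 CPM in treated lungs, and Marco was at or near 0 throughout.

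The 6 epithelial markers (Epcam, Cdh1, Krt8, Krt18, Nkx2-1 and Sftpc) went the other way as a sum, though not each of them. Their summed level was 2495 to 2936 CPM in control, 1821 to 2234 CPM in hypoplastic and 2286 to 2613 CPM in treated lungs, so that the hypoplastic lungs lay below both other groups without overlap, as they lay above them for Igf2, H19 and Igf1. The r with this sum was -0.799 for Igf2, -0.853 for H19 and -0.873 for Igf1, and -0.712, -0.769 and -0.789 without the 2 libraries farthest from the median. Within groups it was -0.324, -0.426 and -0.759. Of the 6 markers, only Nkx2-1 and Sftpc were lower in all hypoplastic lungs than in both other groups. Sftpc differed most in CPM, with means of 822.9 CPM in control, 408.5 CPM in hypoplastic and 639.9 CPM in treated lungs. Krt18 had a higher mean in hypoplastic (125.6 CPM) than in control lungs (107.3 CPM).

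Smooth muscle, neutrophil and heart muscle genes also differed between the libraries. The summed level of 5 smooth muscle markers was 156.4 to 381.6 CPM in control, 323.4 to 644.4 CPM in hypoplastic and 189.3 to 518.7 CPM in treated lungs. The r of the smooth muscle sum was 0.648 with Igf2 and 0.715 with H19, and 0.772 and 0.758 within groups. Without the 2 libraries farthest from the median it was 0.248 and 0.257. The summed level of 6 neutrophil markers was 6.604 to 12.91 CPM in control, 53.84 to 95.32 CPM in hypoplastic and 18.8 to 79.61 CPM in treated lungs. Its r was 0.507 with Igf2 and 0.609 with H19, and -0.427 and -0.487 within groups. The heart muscle sum had r of 0.673 with Igf2 and 0.574 with H19, which were -0.004 and -0.136 without the 2 libraries farthest from the median. Igfbp2 had its highest r, 0.813, with 8 proliferation genes, whose summed level overlapped between the groups (1070 to 1305, 1000 to 1400 and 1017 to 1494 CPM). The part of these cell types and of proliferation in the differences of the 10 genes was not tested.

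For Igf2 and H19 every hypoplastic library lay above every control and treated library. Leaving out libraries could therefore change the size of the differences from the other groups, but hardly their direction. That direction was kept without any 1 library, and without the pair that stood apart for the mesenchyme sum. Without control library 2 and hypoplastic library 2 the log2 difference between hypoplastic and control lungs was 0.676 for Igf2 and 0.669 for H19. That between treated and hypoplastic lungs was -0.817 and -0.537. Leaving out any 1 library, hypoplastic library 1 among them, gave 0.64 to 0.95 for Igf2 and 0.66 to 1.02 for H19 in the first comparison. Hypoplastic library 3, with 2.986 CPM of heart muscle genes, had 4760 CPM of Igf2 and 6420 CPM of H19, above every control and treated library. This describes 1 library, and the part of heart muscle in the differences was not tested. All 3 hypoplastic libraries lay apart from the controls for the epithelial and neutrophil sums, so no library could be left out to remove those differences.

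**Figure D4:**
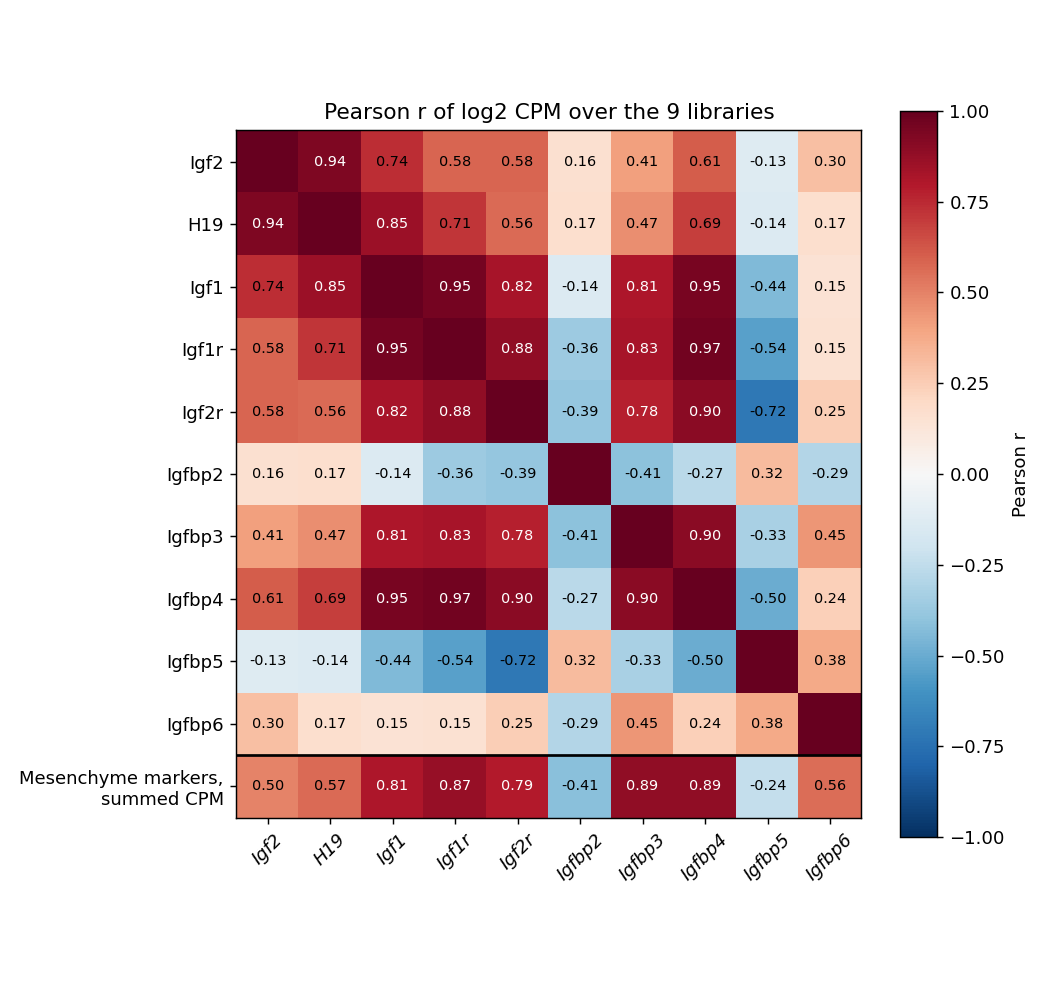
Pearson r of log2 CPM over the 9 libraries between each pair of the 10 genes, and in the bottom row with the summed CPM of 8 mesenchyme markers (colour scale from -1 to 1, value printed in each cell). Igf2 and H19 form a pair at 0.94, and Igf1, Igf1r, Igf2r, Igfbp3 and Igfbp4 form a block that also has high values in the mesenchyme row.

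Other genes of IGF signalling were taken from a list of 43 that was not chosen for how they moved, of which 40 were in the table and 35 were tested. They include the insulin receptor, the adaptor and kinase genes downstream of the receptors, the RNA-binding proteins of the Igf2 messenger and the regulators Ctcf and Plag1. In hypoplastic against control lungs edgeR called 0 of 35 (DESeq2 also 0), with 18 higher, 17 lower and a median log2 difference of 0.01, equal to that of all genes. Below an unadjusted p of 0.05 lay 3 higher and 0 lower, against 6.67 and 5.69% of all genes. In treated against hypoplastic lungs edgeR and DESeq2 called 0 of 35. At an unadjusted p under 0.05 edgeR had 3 lower (3.56% of all genes were) and none higher. In treated against control lungs both called 0 of 35. At that unadjusted level edgeR had 0 higher and 1 lower there, against 1.67 and 2.50% of all genes. Of the insulin genes, Ins1 and Ins2 are listed at 0 in all libraries.

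The genes named next were among the 4 of smallest p in a comparison, and none of them was called. Plag1, a transcription factor known to activate Igf2, stood at 11.98, 10.74 and 16.72 CPM in control, 18.71, 25.41 and 17.21 CPM in hypoplastic and 11.59, 12.47 and 17.18 CPM in treated lungs. Its hypoplastic libraries lay above both other groups, by only a narrow gap to control library 3 and treated library 3. The log2 difference of Plag1 was 0.64 (SE 0.23, edgeR adjusted p 0.3474) for hypoplastic against control and -0.57 (SE 0.23, edgeR adjusted p 0.8954) for treated against hypoplastic lungs. The first was 0.323 without control library 2 and hypoplastic library 2.

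Pappa, which encodes the protease PAPP-A, stood at 13.51, 6.35 and 12.45 CPM in control, 19.92, 17.18 and 10.59 CPM in hypoplastic and 7.649, 7.318 and 10.53 CPM in treated lungs. Treated lungs were lower than hypoplastic lungs without overlap, though treated library 3 and hypoplastic library 3 were almost equal. The log2 difference of Pappa was -0.91 (SE 0.31, edgeR adjusted p 0.8731).

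Insr, the insulin receptor, was lowest in the treated lungs. It stood at 163.4, 138.9 and 171.4 CPM in control, 149.4, 146 and 157.4 CPM in hypoplastic and 119.2, 124.4 and 136.3 CPM in treated lungs. All 3 treated libraries lay below the other 6, and the log2 difference of Insr was -0.32 (SE 0.10, edgeR adjusted p 0.9982) from control and -0.25 (SE 0.10, edgeR adjusted p 0.8954) from hypoplastic lungs.

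Htra1, a secreted protease, had a log2 difference of 1.61 (SE 0.55, edgeR adjusted p 0.3328) between hypoplastic and control lungs, with 91.61 CPM in hypoplastic library 2 against 28.65 and 28.02 CPM in the others of that group. It was 0.812 without hypoplastic library 2 and 0.451 without control library 2 as well. Mtor, a growth kinase, had one of -0.26 (SE 0.12). Igf2bp2, which binds the Igf2 messenger, had a log2 difference of 0.28 (SE 0.13) between treated and hypoplastic lungs. In treated against control lungs Htra1 was at 1.07 (SE 0.54) and Foxo1, a transcription factor held back by AKT, at 0.27 (SE 0.18). Without control library 2 these were 0.712 and 0.112, and Foxo1 was at 0.472 without control library 3 and 0.159 without treated library 3.

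Of 9571 genes ranked by Pearson's r of log2 CPM with Igf2 over the 9 libraries, H19 came second at 0.937. The first was Atp6ap2 (r 0.945, rho 0.983), a subunit linked to the vacuolar proton pump, at 31.6 CPM in control, 38.72 CPM in hypoplastic and 31.41 CPM in treated lungs. Cyp51 (r 0.929, rho 0.9), an enzyme of cholesterol synthesis, stood at 130, 184.7 and 125.8 CPM. Tfpi (0.925), an inhibitor of coagulation, Acss2 (0.925), which makes acetyl-CoA from acetate, and Ap1s2 (0.923), an adaptor of vesicle transport, followed.

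The genes most like H19 were others, with Igf2 only 13th among its ranks. They were Rpl34 (r 0.973, rho 0.9), a ribosomal protein gene, Tp53rkb (0.964), Psma5 (0.957), a proteasome subunit, Ddx50 (0.953), an RNA helicase, LOC100909675 (0.953) and Spin1 (0.953). Rpl34 stood at 484.4 CPM in control, 631.3 CPM in hypoplastic and 547.5 CPM in treated lungs. With 9 libraries and 9571 genes ranked, values of this size are described and not tested.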

How the data were processed

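The authors deposited 1 table of estimated counts per gene, with 9 library columns and NCBI Gene IDs. Of its nonzero values 19.52% were whole, and column totals differed, so the values were taken as estimated counts without normalization and were rounded before each test. Ribosomal RNA was removed before sequencing, per the labels' protocols. The submitters' processing notes list rn7 and DESeq2. For the aligner, the counting program, its use of strand and the origin of the fractions: not given in the sources used here. In RefSeq the spans of Igf2 and H19 each overlap another gene model, so reads shared with those cannot be told apart. Symbols came from RefSeq (GRCr8), used for names and sequences, and 17314 IDs (99.14%) matched.

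A single model with 1 coefficient per group covered the 9 libraries: edgeR 4.0.16 in R 4.3.3, TMM, filterByExpr, glmQLFit with legacy=FALSE and glmQLFTest, with Benjamini-Hochberg adjustment over all 12966 genes. Standard errors are approximate (size of the log2 change over the root of its F statistic). Calls were made below an adjusted p of 0.05. The alternatives were DESeq2 1.42.0, limma 3.58.1 voom, RLE factors, other filters, fewer libraries, a sex covariate, the replicate block and removal of 6 ribosomal and 7SL rows (16.15% of counts). The fits were run on simulated counts with an equal spread set for every gene, which checks the code and not their error rates in these libraries. Correlations used log2(CPM + 0.5). Named genes were the 10 genes, the called other IGF genes or else the 4 of smallest p with a mean of at least 1 CPM, and the 6 genes most like Igf2 and H19 at a mean of at least 5 CPM. Of the other IGF genes that this rule names, 1 is not reported here. The genes, the lists and the alternatives were chosen with earlier results of these data known. That the libraries are separate lungs is taken from the series' design text. The libraries of a group differed by at least 134.3 times the chi-square per degree of freedom that counting error gives. The series names no litters, so p-values measure only the spread between these samples, which may be technical.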

Additional observations from a re-analysis of the deposited data

How the results depend on the processing

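Over the alternatives 480 values of the 10 genes were computed, and 475 moved by no more than the SD within groups. The 5 that moved further were of Igfbp3 and Igfbp6 without hypoplastic library 2, with or without control library 2. The sign differed from that reported in 37 values, none of them of Igf2, H19 or Igf1 against the hypoplastic lungs. The hypoplastic libraries of these genes lay apart from both other groups, so leaving out libraries could hardly change that sign. The 192 values of the other IGF genes named kept their sign and remained not called. The mean H19 to Igf2 ratio without 1 library, an alternative chosen after seeing the data, was 1.261 to 1.345 in control, 1.337 to 1.379 in hypoplastic and 1.614 to 1.631 in treated lungs. Between hypoplastic and control lungs DESeq2 called 202 genes, between treated and hypoplastic lungs 17, and between treated and control lungs 14, where edgeR called 1, 0 and 0. In hypoplastic against control lungs the edgeR count was 4 with only the 6 libraries compared, 2 without control library 2 and hypoplastic library 2, and 0 to 45 with 1 library left out (0 without control library 1 or 3, 2 without hypoplastic library 1, 45 without hypoplastic library 3). With 1 library left out it was 0 to 44 in treated against hypoplastic (2 without hypoplastic library 1, 44 without hypoplastic library 3) and 0 to 1 in treated against control lungs (1 without control library 2, also without hypoplastic library 2). None of these edgeR fits called 1 of the 10 genes, and the cause of the larger counts was not tested.

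The labels do not say that replicate numbers pair the lungs. Deviations from group means correlated at -0.368 to 0.312 between same-numbered libraries, above 0.1 in 3 of 9 pairs. Between differently numbered libraries of different groups they correlated at -0.535 to 0.501, above 0.1 in 6 of 18 pairs. Of the 9 libraries 0 correlated best with their own number. A replicate block in the edgeR fit gave 2 called genes between hypoplastic and control lungs and 0 in the other comparisons, and 0 of the 10 genes.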

Other observations

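Other imprinted genes linked to fetal growth were mixed in direction. Of 10 listed (Dlk1, Meg3, Mest, Peg3, Plagl1, Cdkn1c, Ndn, Gnas, Dcn and Grb10), edgeR called 0 in hypoplastic against control lungs. At an unadjusted p under 0.05 by edgeR 1 was higher and 2 were lower, against 6.67 and 5.69% of all genes. The median log2 difference was 0.15 against 0.01 over all genes. The genes below were singled out after their values were seen. Dlk1 and Meg3, a neighbouring imprinted pair on another chromosome, were both lower: Dlk1 was at 1170, 1516 and 1946 CPM in control and at 1034, 1239 and 1021 CPM in hypoplastic lungs, with overlap. Meg3 was at 140.1, 486.6 and 207.1 CPM in control and at 139.5, 154.9 and 147.9 CPM in hypoplastic lungs, and control library 2 was far above the other 5 of these. Ndn was at 12.62, 10.77 and 12.52 CPM in control and, without overlap, at 17.69, 14.26 and 13.43 CPM in hypoplastic lungs. Gnas was lower, at 5701, 6250 and 5964 CPM in control and at 5671, 4572 and 4112 CPM in hypoplastic lungs, apart by only a narrow gap. Peg3 was at 206.8, 150.6 and 186.1 CPM in control, 217.7, 241.7 and 195.5 CPM in hypoplastic and 176.5, 166.3 and 186.1 CPM in treated lungs. Its hypoplastic libraries lay above the treated ones without overlap, as did those of 4.74% of all genes.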
